A study of Mus musculus with 4 samples.

Results

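The cells described here are the C1q-low monocyte-derived and dendritic cells of mouse ear skin. They were selected on transcript counts measured in single-cell RNA libraries of skin, so the genes of the rule are no finding. A barcode belonged when it held 2 or more UMIs (distinct captured transcripts) of Ccr2, Csf1r and Flt3 together and 1 or more of Ptprc, the leukocyte surface phosphatase. It also had to hold under 0.1% of its UMIs from C1qa, C1qb and C1qc, under 0.05% from Cd207, under 1% from S100a8 plus S100a9, under 1% from Krt5 plus Krt14, and no Cd3d or Cd3g UMI. These genes mark C1q-rich macrophages, Langerhans cells, neutrophils, keratinocytes and T cells, but the limits did not remove all keratinocyte RNA, which reached 4.61% of UMIs in 1 IgG member and 8.49% in 1 EBA member. The rule found 281 cells among 9615 kept skin barcodes, or among 17546 kept barcodes in all. Of these, 46 were in the control library and 235 in the disease library.

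The mice were C57BL/6J, aged 6 to 8 weeks, with no genetic change named in the labels. Each injection held 250 µg of IgG from rabbit, with 3 injections per week over 2 weeks. Control mice (IgG) were given control rabbit IgG. The other group was given rabbit IgG against collagen VII (its vWFA2 domain) as a model of epidermolysis bullosa acquisita (EBA), an autoimmune blistering disease. Cells of 3 mice were pooled into each library, and blood and ear skin gave 1 library per group, so no test between EBA and IgG was possible. Skin came from punch biopsies and was digested with enzymes, while red cells of blood were lysed.

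Skin holds dendritic cells that carry antigen to lymph nodes and, after injury, monocytes that leave the blood through the chemokine receptor CCR2 and mature in the tissue. CSF1R is the receptor for the growth factor of monocytes and macrophages, whereas FLT3 is the growth factor receptor of the dendritic lineage. In this disease model, antibodies deposited at the dermal-epidermal junction engage Fc receptors on myeloid cells. Monocyte-derived cells can take on inflammatory, antigen-presenting or wound-repairing states, and these are marked by different genes.

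In EBA skin, 5.49% of kept barcodes were members (235 of 4281, exact binomial 95% interval 4.83% to 6.21%). In IgG skin the share was 0.862% (46 of 5334, 0.632% to 1.15%). Among kept barcodes with a Ptprc UMI the share was 13.9% in both libraries (235 of 1688 and 46 of 330). Ptprc-positive barcodes were thus more numerous in the EBA library, while members were the same fraction of them. Before the limits on C1q and Cd207, members were 45.2% of the 520 barcodes that passed in EBA skin and 36.2% of the 127 in IgG skin.

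Median depth was 9942 UMIs and 2500 genes per member in EBA skin, and 8030.5 UMIs and 2155.5 genes in IgG skin. Summed, the members held 2631556 and 507313 UMIs. Over all 4 libraries the kept barcodes numbered 3419 to 5334. Libraries, taken in pairs, shared 8 to 15 barcode sequences, and 1 IgG member had a barcode that was also present in EBA skin. Levels are in CPM (counts of a gene, summed over members and scaled to a common library total), with exact Poisson 95% intervals where given. A ratio carries an exact conditional 95% interval. These intervals cover counting error only, and say nothing of the spread between mice.

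The 3 genes behind the rule were present in different mixtures, which is a description and no finding. Ccr2 stood at 213 CPM in EBA and 248 CPM in IgG members. Csf1r stood at 298 and 126 CPM, and Flt3 at 44.1 and 55.2 CPM. Csf1r without Flt3 was found in 69.4% of EBA members (163 cells) and 45.7% of IgG members (21 cells). A Flt3 UMI was found in 22.1% of EBA members (52 cells) and 41.3% of IgG members (19 cells). Just inside the limit, the 42 EBA members with 2 UMIs of these genes had 475 CPM of Mmp12, 275 CPM of Arg1 and 7935 CPM of Cd74. Just outside it, the 41 EBA barcodes with 1 UMI had 357, 13.8 and 4779 CPM. In IgG skin the 9 members inside had 0 CPM of Mmp12 and Arg1 and 9934 CPM of Cd74, and the 21 barcodes outside had 200.2, 9.31 and 18087 CPM. Around the C1q limit, the 12 EBA members at 0.05 to 0.1% had 163 CPM of Mrc1 and 26 barcodes at 0.1 to 0.2% had 741 CPM.

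The label was checked with marker panels after each cell was thinned to 2000 UMIs, which left out 1 shallow IgG member. A panel counted as present with 2 or more of its UMIs. The monocyte panel (Ly6c2, Plac8, Ms4a4c, Fn1, Vcan, Chil3) was present in 57.4% of EBA members (135 of 235, 50.9% to 63.9%) and 26.7% of IgG members (12 of 45, 14.6% to 41.9%). The wound macrophage panel (Arg1, Mmp12, Spp1, Gpnmb, Trem2) was present in 45.96% of EBA members (39.5% to 52.6%) and 17.8% of IgG members (8.00% to 32.1%). The conventional type 2 dendritic cell panel (Cd209a, Mgl2, Clec10a, Kmo, Irf4) had the opposite order, with 9.79% of EBA members (6.31% to 14.3%) and 53.3% of IgG members (37.9% to 68.3%). In barcodes rich in keratin, which should lack all 3 panels, the highest share was 0.42%, for the wound macrophage panel in EBA skin. Those keratin-rich barcodes had median depths of 35175.5 UMIs in EBA and 9592 in IgG skin before thinning. C1q-high skin cells, which met the rule except for the C1q limit, were counted alike. They had the wound macrophage panel in 57.1% (EBA) and 44.6% (IgG), more often than the members. The type 2 dendritic cell panel was present in 11.3% and 29.2% of them, and the monocyte panel in 22.3% and 0 of 65. The wound macrophage panel and the lower type 2 dendritic cell share in EBA were thus not particular to the members.

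**Figure D1:**
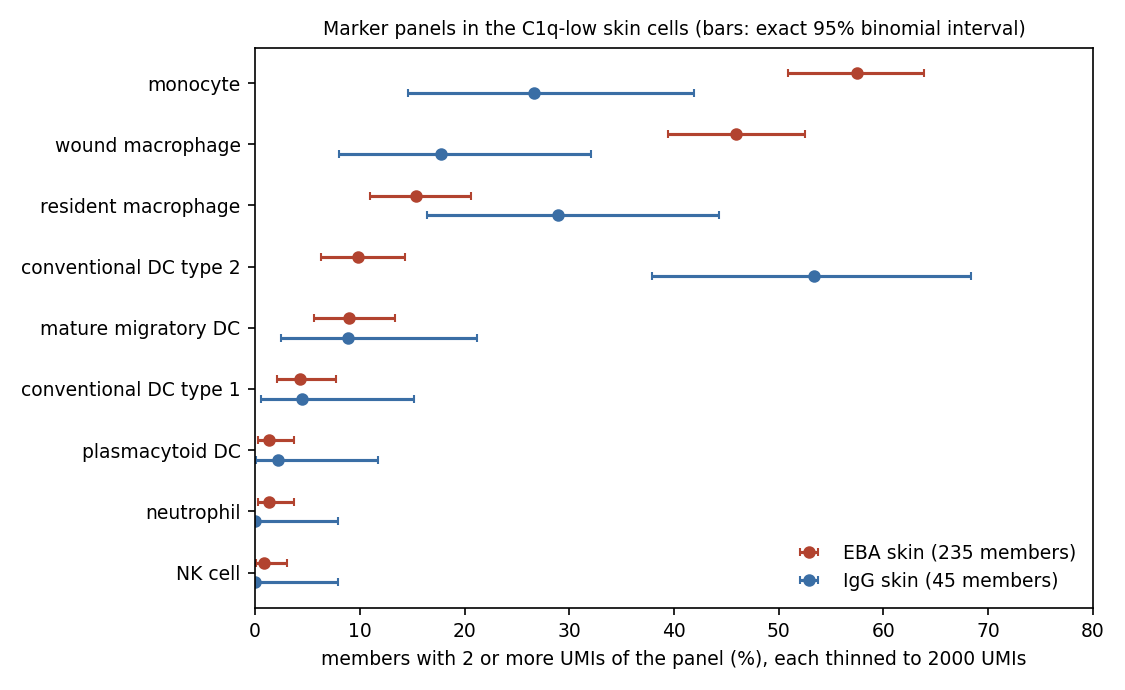
Share of members with 2 or more UMIs of each marker panel (x axis, percent) after thinning each cell to 2000 UMIs, for 9 panels (y axis). Red is EBA skin, blue is IgG skin, and bars are exact 95% binomial intervals. The monocyte and wound macrophage panels lie higher in EBA members, at 57.4% and 45.96%, and the type 2 dendritic cell panel in IgG members, at 53.3%.

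Panels for both names in the label were thus present in the members, but to different extents in the 2 libraries. In EBA skin the type 2 dendritic cell panel was no more frequent in members (9.79%) than in C1q-high cells (11.3%). There it did not set the members apart from those cells. Monocyte genes led in EBA members and type 2 dendritic cell genes in IgG members. Mature migratory dendritic cell markers, which mark cells leaving for the lymph node, were present in 8.94% of EBA and 8.89% of IgG members. C1q-high cells had them in 0.81% (EBA) and 0 of 65 (IgG). The type 1 dendritic cell panel was present in 4.26% of EBA and 4.44% of IgG members. Its defining genes Xcr1 (2.28 against 0 CPM) and Clec9a (0.76 against 1.97 CPM) were near 0. The neutrophil panel without the rule's genes was present in 1.28% of EBA and 0 of 45 IgG members, and the NK cell panel in 0.851% and 0. The resident macrophage panel without the C1q genes (Mrc1, Cd163, Folr2, Lyve1, Adgre1) was present in 15.3% of EBA members (11.0% to 20.6%) and 28.9% of IgG members (16.4% to 44.3%), and in 0 of the thinned keratin-rich barcodes of either library. In IgG members that share lay beside the 26.7% of the monocyte panel. Of its genes, Mrc1 stood at 237 against 158 CPM and Adgre1 (F4/80) at 93.5 against 78.8 CPM in EBA and IgG members, while Lyve1 had no UMI. T cell and innate lymphoid markers were present in 26.0% of EBA and 31.1% of IgG members, and in 27.3% and 33.1% of keratin-rich barcodes. The genes behind these shares differed. After thinning, Gata3 had a UMI in 28.6% and 31.1% of keratin-rich barcodes and in 3.40% of EBA and 0 of 45 IgG members. Il7r had one in 0 of 238 EBA and 0.0749% of IgG keratin-rich barcodes, and in 42.6% and 53.3% of members. In members the most abundant gene of the panel was Il7r (440.4 against 459 CPM, against 32.6 and 9.51 CPM in the other kept barcodes), which had a UMI in 164 EBA and 32 IgG members, while Cd3e (0 against 1.97 CPM) and Trac (0.38 against 0 CPM) were near 0.

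The panels were also counted together in single cells, as a description. Of 135 EBA members with the monocyte panel, 68 also had the wound macrophage panel and 4 the type 2 dendritic cell panel. Of the 12 such IgG members, 0 had the wound macrophage panel and 7 the dendritic panel. Among members with the wound macrophage panel, 7 of 108 in EBA and 5 of 8 in IgG also had the type 2 dendritic cell panel. Of EBA members, 33 met none of 5 panels (monocyte, wound macrophage, the 2 conventional dendritic cell types and mature dendritic cells) and 91 met 2 or more. Of IgG members, 13 met none and 16 met 2 or more.

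Mmp12, macrophage elastase, was given as a marker of these cells. It stood at 335 CPM (313 to 358) in EBA and 162 CPM (129 to 201) in IgG members, from 64 and 10 cells. Mmp12 was more abundant in members with the type 2 dendritic cell panel, at 707 CPM in EBA and 306 CPM in IgG. In members without that panel it stood at 289 and 43.3 CPM. Arg1, which turns arginine into ornithine and urea, stood at 210.1 CPM (193 to 228) in EBA members and had no UMI in IgG members, at least 35.5-fold higher against a floor of 3 counts. Its UMIs came from 42 of 235 cells, 1 of which held 23.9% of them. The other EBA members had no Arg1 UMI at this depth.

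Across all genes, 7667 had at least 10 UMIs in the pooled members and at least 10 CPM in either library, and count as measured. Calling a gene took a difference of at least 2-fold in either direction with an interval that excluded 1. By this rule 746 genes (9.73%) were higher in EBA members and 575 (7.5%) were lower. The log2 ratio had a median of 0.11, and with ratios taken relative to that median 612 were higher and 687 lower. A few barcodes carried much RNA of other cells. In 3 IgG and 6 EBA members keratinocyte or fibroblast markers exceeded 1% of UMIs, and these held 27.1% of the IgG and 8.86% of the EBA UMIs. Without them, 524 of 7457 genes (7.03%) were higher and 356 (4.77%) lower. Members left in could still hold such RNA below 1%, and no IgG member exceeded the limit for fibroblast markers (at most 0.295%).

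Ranked by the ratio bound nearest to 1, the genes higher in EBA members were led by Chil3, Arg1, Defb6, Wfdc21, Ccl24, Spp1, Mmp13, Acod1, Ctla2a, Plac8, Lor and Pf4. Of these, 3 came largely from single barcodes. Defb6, Wfdc21 and Lor had 98.1%, 85.5% and 96.2% of their UMIs in 1 EBA cell each, and Wfdc21 and Lor in the same cell, which had 85236 UMIs and keratinocyte RNA. Passing over genes with more than 50% of their UMIs in 1 cell of the library where they were higher added Il1a, Pdpn and Ctsl. That second ranking was added after the values were seen.

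Chil3 encodes a chitinase-like lectin secreted by monocytes and macrophages. It stood at 949 CPM (912 to 987) in EBA and 7.88 CPM (2.15 to 20.2) in IgG members, a 120.4-fold (47.0 to 442) difference. After thinning, 41.7% of EBA members and 4.44% of IgG members had a Chil3 UMI, against 0 of 238 EBA keratin-rich barcodes, which allows up to 1.54%. Reads of Chil3 may be shared with near-identical copies such as Chil4, so its value is uncertain in that respect. Plac8, a lysosomal protein of monocytes, stood at 429 CPM (404 to 455) and 19.7 CPM (9.45 to 36.3).

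Spp1 encodes osteopontin, a secreted phosphoprotein of wound and tissue macrophages. It stood at 2560.1 CPM (2499 to 2622) in EBA and 103 CPM (76.6 to 134) in IgG members, 25.0-fold (19.0 to 33.5) higher. A Spp1 UMI was found in 111 EBA and 9 IgG members, and 1 EBA cell held 21.1% of the EBA UMIs. In IgG members 1 cell held 75.0%. Without the cell of each library with most Spp1 UMIs, the levels were 2039.8 and 26.0 CPM, 78.3-fold (45.8 to 147) apart. Mmp13, interstitial collagenase, stood at 124 CPM (111 to 138) in EBA members and had no UMI in IgG members, at least 21.0-fold higher. The same EBA cell, of 11021 UMIs, held most UMIs of any cell for Arg1, Mmp13 and Pf4. Its shares were 23.9%, 20.5% and 22.3% of their EBA UMIs.

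Other genes of this group have varied roles, and Ccl24 and Pf4 belong to the resident macrophage list. Acod1, which makes itaconate, stood at 164 against 1.97 CPM in EBA and IgG members. The other kept barcodes had 161 CPM in EBA and 0.28 CPM in IgG skin, so this rise was not particular to the members. In the members the IgG value rests on 1 UMI, and the ratio was 83.1-fold (14.8 to 3289). Il1a, an alarmin of the interleukin-1 family, stood at 202 against 7.88 CPM (25.6-fold, 9.96 to 94.4). Ccl24, an eosinophil-attracting chemokine, stood at 168 against 0 CPM and came from 19 cells, 1 of which held 31.5% of its UMIs. Pf4, a platelet chemokine that macrophages also express, stood at 284 against 11.8 CPM. Ctsl, a lysosomal cysteine protease, stood at 1160.2 against 116 CPM (9.98-fold, 7.71 to 13.1), and Pdpn, a membrane glycoprotein, at 266 against 15.8 CPM. In C1q-high skin cells Ccl24 and Pf4 were not higher in EBA. There Ccl24 stood at 45.4 against 65.9 CPM and Pf4 at 2818 against 4557 CPM.

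**Figure D2:**
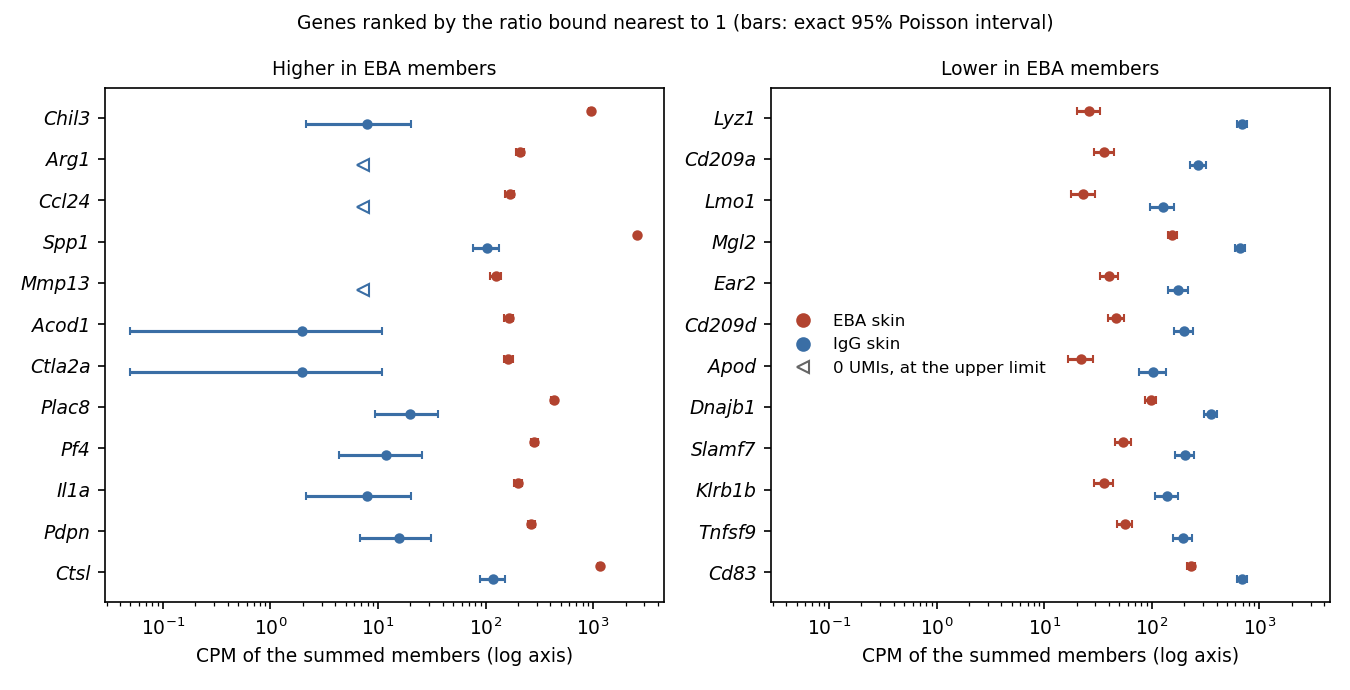
CPM of the summed members (x axes, log scale) for the 12 genes that ranked highest (left) and lowest (right) in EBA over IgG members among genes with no more than 50% of their UMIs in 1 cell of the higher library. Red is EBA skin, blue is IgG skin, bars are exact 95% Poisson intervals, and open triangles mark the upper limit for 0 UMIs. Chil3 lies at 949 and 7.88 CPM, and Lyz1 at 25.8 and 694 CPM.

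Of the 12 genes ranked lowest in EBA members, 9 had most of their IgG UMIs in 1 cell. Il12b, a subunit of interleukin 12 and 23, had all its UMIs in 1 cell of 20478 UMIs. Fmod, Angptl7, Mgp and Timp3, genes of matrix and stroma, had 95.3% to 100% of their IgG UMIs in 1 cell of 17950 UMIs. That cell was not over the 1% limit on keratinocyte or fibroblast markers. Fgfbp1, Dsc3, Dsg1a and Fam213b had 72.2% to 93.8% in 1 cell of 103240 UMIs with keratinocyte RNA. Of the first 12, this left Lyz1, Cd209a and Lmo1 as genes spread over several cells.

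Lyz1, a lysozyme, stood at 25.8 CPM (20.1 to 32.8) in EBA and 694 CPM (623 to 770.3) in IgG members, 26.9-fold (20.7 to 35.3) lower. Its neighbour Lyz2, the macrophage lysozyme stood at 3366 against 3075 CPM and has a very similar sequence, so reads may be shared between them. Cd209a, a lectin receptor of dendritic cells with close family copies such as Cd209d, stood at 36.1 CPM (29.2 to 44.1) and 268 CPM (225 to 317), 7.43-fold (5.67 to 9.76) lower. It was found in 2.55% of EBA and 35.6% of IgG members after thinning. Mgl2, a galactose-binding lectin of dermal dendritic cells, stood at 155 against 658 CPM (4.25-fold, 3.66 to 4.92 lower) and was found in 8.51% and 51.1%. Both genes had a UMI in under 0.2% of thinned keratin-rich barcodes.

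The other genes of the second ranking were Lmo1, Ear2, Cd209d, Apod, Dnajb1, Slamf7, Klrb1b, Tnfsf9 and Cd83. Ear2, a ribonuclease, stood at 40.3 against 175 CPM (4.36-fold, 3.25 to 5.83 lower). Cd83, a maturation marker of dendritic cells, stood at 231 against 692 CPM (3.00-fold, 2.62 to 3.43 lower). Tnfsf9, the 4-1BB ligand that costimulates T cells, stood at 56.2 against 195 CPM (3.47-fold, 2.66 to 4.51 lower). Dnajb1, a heat shock co-chaperone, stood at 97.7 against 353 CPM, with 49.2% of its IgG UMIs in 1 cell.

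Gene lists were then counted, with each list's median log2 ratio (EBA over IgG) over its measured genes, where a gene without UMIs in 1 sum entered at its bound. All list counts stand beside 9.73% higher and 7.5% lower over all measured genes. The monocyte list had 11 of 15 measured genes higher, 0 lower and a median of 1.497. Its most abundant members were Thbs1, Lyz2, Cd44 and Chil3. Thbs1, thrombospondin, stood at 3968 against 1425 CPM (2.78-fold, 2.58 to 3.01), and Cd44, the hyaluronan receptor, at 1024 against 434 CPM (2.36-fold, 2.06 to 2.72). Vcan (versican) stood at 195 against 21.7 CPM. Itgam (CD11b) stood at 233 against 61.1 CPM. Like Inhba, Plau, Itgax, Ciita, Cd40, Cd80, Ccr1, Ccl2, Ccl3, Ccl4, Cxcl10, Aldoa, Hif1a, Ass1, Nos2, Plin2 and the last 5 pattern receptors given below, Itgam lay outside the rule for naming and was chosen after its values were seen. Ly6c2, the marker of classical monocytes, stood at 77.5 against 29.6 CPM, with UMIs in 67 EBA and 6 IgG members.

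The wound macrophage list had 10 of 15 measured genes higher, 0 lower and a median of 1.13. Slc7a11, the cystine transporter, stood at 1792 against 656 CPM (2.73-fold, 2.44 to 3.06). Hmox1, which breaks down haem, stood at 2491 against 1579 CPM and Lgals3, a galactose-binding lectin, at 5636 against 6542 CPM, and neither was called. Gpnmb, a lysosomal glycoprotein, at 647 against 59.1 CPM, Inhba (activin A) at 632 against 71.0 CPM and Trem2, a lipid-sensing receptor, at 108 against 51.3 CPM were higher. The protease and matrix list had 9 of 18 genes higher, 1 lower (Plau, urokinase, at 5.70 against 25.6 CPM) and a median of 1.00. Among its abundant members, Tgfbi, an extracellular matrix protein, stood at 1607 against 299.6 CPM (5.36-fold, 4.56 to 6.35), Ctsb, a lysosomal protease, at 1358 against 627 CPM and Ctss, which trims the class II chaperone, at 1086 against 792 CPM, the last not called.

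**Figure D3:**
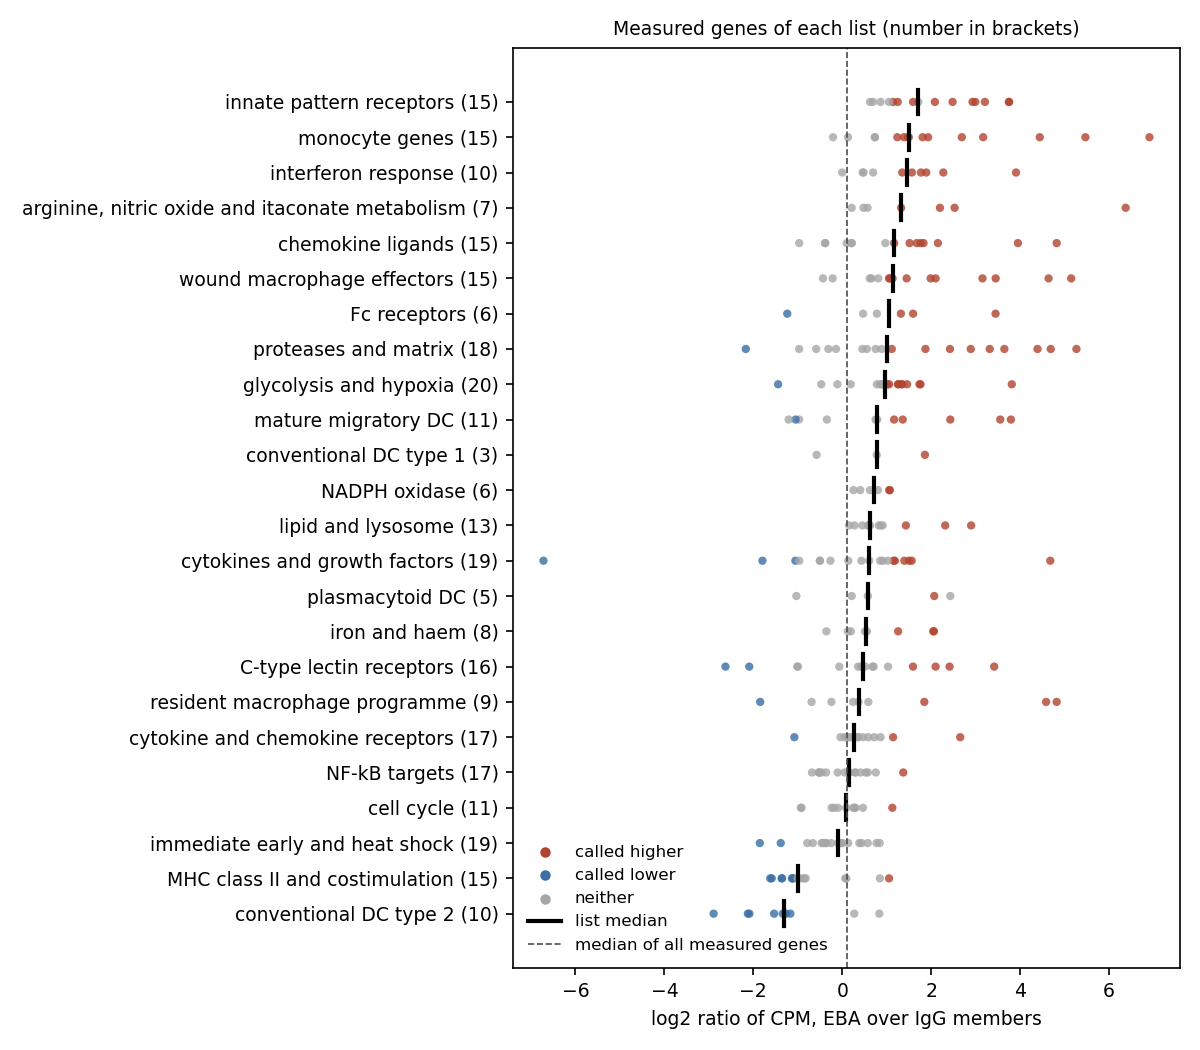
Log2 ratio of CPM, EBA over IgG members (x axis), of each measured gene in 24 lists (y axis, number measured in brackets). Red points were called higher, blue lower and grey neither, black ticks are list medians, genes with 0 UMIs in 1 sum are drawn at their bound, and the dashed line is the median of all measured genes, 0.11. The innate pattern receptor list has the highest median, 1.71, and the type 2 dendritic cell list the lowest, -1.31.

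The type 2 dendritic cell list had 0 of 10 measured genes higher, 7 lower and a median of -1.31. Besides Cd209a, Mgl2 and Ear2, the lower genes were Clec10a, Irf4, Tnip3 and Klf4. Irf4, a transcription factor of this lineage, stood at 23.2 against 67.0 CPM. Klf4 (246 against 595 CPM) had 64.9% of its IgG UMIs in 1 cell. Its log2 ratio moved from -1.28 to 0.17 without the members over 1% keratinocyte or fibroblast RNA. Sirpa, an inhibitory receptor, at 232 against 130.1 CPM and Itgax (CD11c) at 64.2 against 53.2 CPM were not called.

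MHC class II genes and their partners present peptides to helper T cells. This list had 7 of 15 measured genes lower, 1 higher and a median of -0.999. Cd74, the invariant chain, stood at 7836 CPM (7729 to 7944) in EBA and 20161 CPM (19772 to 20556) in IgG members, 2.57-fold (2.51 to 2.63) lower. H2-Aa stood at 3468 against 7406 CPM (2.14-fold, 2.06 to 2.22 lower) and H2-Ab1 at 3285 against 7183 CPM (2.19-fold, 2.10 to 2.27 lower), and H2-Eb1 at 2877 against 5409 CPM missed the 2-fold limit. Without the members over 1% keratinocyte or fibroblast RNA, 11 genes of the list were lower and 0 higher. The number of cells with these transcripts differed too. All 45 thinned IgG members had a Cd74 UMI and an H2-Aa UMI, while 60.4% of EBA members had Cd74 (53.9% to 66.7%) and 47.7% had H2-Aa (41.1% to 54.3%). Keratin-rich barcodes had Cd74 in 1.68% (EBA) and 2.02% (IgG). Ciita, the class II transactivator, stood at 28.9 against 88.7 CPM and Cd40 at 24.7 against 63.1 CPM, both lower, and Cd80 at 53.2 against 25.6 CPM was the list's higher gene.

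Fc receptors bind the constant part of antibodies. Of 6 measured, Fcgr1, Fcgr2b and Fcgr4 were higher and Fcgrt was lower, with a median of 1.05. Fcgr1, the high-affinity activating receptor, stood at 64.6 CPM (55.3 to 75.1) in EBA and 5.91 CPM (1.22 to 17.3) in IgG members (10.9-fold, 3.68 to 53.5). Fcgr2b, the inhibitory receptor, stood at 290.3 against 116 CPM (2.50-fold, 1.91 to 3.31). Fcgr4, an activating receptor, stood at 17.9 against 0 CPM, at least 3.02-fold higher. Fcgrt, the neonatal Fc receptor, stood at 49.4 against 116 CPM (2.35-fold, 1.70 to 3.23 lower). Fcgr3, another activating receptor, at 199.5 against 116 CPM and Fcer1g, the shared signalling chain, at 1297 against 936 CPM were not called.

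C-type lectin receptors recognise sugars and ligands of damaged or microbial cells, and are named in the title of the series. Of 16 measured in the members, Clec4d, Clec5a, Clec12a and Olr1 were higher and Cd209d and Cd209e lower, with a median of 0.48. Clec4d stood at 678 CPM (646 to 709.7) in EBA and 225 CPM (185 to 269.9) in IgG members (3.02-fold, 2.49 to 3.68), with a UMI in 54.0% and 35.6% of thinned members. Clec4e (Mincle), which pairs with it, stood at 1132 against 842 CPM (1.34-fold, 1.21 to 1.49) and was not called. Clec4n (Dectin-2) stood at 309 against 189 CPM and was not called. Clec5a, a signalling receptor of monocytes and neutrophils, stood at 42.2 against 3.94 CPM, and Clec12a, an inhibitory receptor, at 31.5 against 5.91 CPM. Olr1, a scavenger receptor for oxidised lipoprotein, stood at 33.8 against 7.88 CPM. The IgG values of these 3 rest on 2 to 4 UMIs. Cd209d stood at 46.7 against 199 CPM (4.26-fold, 3.24 to 5.59 lower) and Cd209e at 7.98 against 49.3 CPM (6.18-fold, 3.32 to 11.6 lower).

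The innate pattern receptor list had 10 of 15 measured genes higher, 0 lower and the highest median, 1.71. Its abundant members Cd14, a co-receptor for lipopolysaccharide, at 1962 against 1212 CPM, and Nlrp3, an inflammasome sensor, at 207 against 134 CPM were not called, while Tlr2 at 222 against 101 CPM was. C5ar1, the receptor for the complement fragment C5a, stood at 133 against 9.86 CPM (13.5-fold, 5.71 to 41.7). Tlr4 had UMIs in 60 EBA members and none in IgG (33.1 against 0 CPM, at least 5.59-fold higher). Trem1 (47.1 against 5.91 CPM), the formyl peptide receptor Fpr2 (26.6 against 1.97 CPM) and the scavenger receptor Msr1 (105 against 13.8 CPM) were also higher. The IgG values of C5ar1, Tlr4, Trem1, Fpr2 and Msr1 were 13.8 CPM or less and rest on few UMIs. In members with the type 2 dendritic cell panel, 0 of 5 measured genes of the list were higher (median -0.597). Without that panel 7 of 16 were higher (median 1.103). In members with a Flt3 UMI 1 of 8 was higher (median 0.556), and without one 9 of 14 (median 1.498). The difference between these subsets was not tested. Among receptors for cytokines and chemokines, 2 of 17 were higher and 1 lower, near the 9.73% and 7.5% over all measured genes. Of the higher 2, Ccr1, a receptor for inflammatory chemokines, stood at 521 against 82.8 CPM (6.30-fold, 4.63 to 8.78).

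Chemokine ligands recruit leukocytes. Of 15 measured, 8 were higher and 0 lower, with a median of 1.17. Cxcl2, a neutrophil attractant, stood at 10366 CPM (10243 to 10489.5) in EBA and 2917 CPM (2771 to 3069.8) in IgG members (3.55-fold, 3.37 to 3.75). It had a UMI in 74.0% of EBA and 46.7% of IgG thinned members, and in 5.88% and 3.67% of keratin-rich barcodes. Cxcl3, of the same family, stood at 1762 against 396 CPM (4.45-fold, 3.86 to 5.15) and Cxcl1 at 916 against 270.1 CPM (3.39-fold, 2.85 to 4.06). Ccl3 (598 against 209 CPM), Ccl4 (428 against 134 CPM) and Cxcl10 (91.6 against 5.91 CPM) were higher, and Ccl9, at 577 against 538 CPM, was not called. Ccl2, which attracts CCR2-bearing monocytes, stood at 83.2 against 108 CPM, and 1 cell held 70.9% of its IgG UMIs.

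Of 19 measured cytokines and growth factors, 6 were higher, 3 lower and the median was 0.61. Il1b, the secreted inflammatory interleukin-1, stood at 3235 against 3889 CPM, a log2 ratio of -0.27 that was not called. Il1rn, its receptor antagonist, stood at 385 against 213 CPM and Tgfb1 at 309 against 203 CPM, neither called. Tnf stood at 255 against 112 CPM (2.27-fold, 1.73 to 3.03), but its log2 ratio was -1.34 among the 83 EBA and 12 IgG members with fewer than 2 lymphoid or mast cell UMIs, where Trem2 was at -0.36. The cytokine median was -0.11 without the members over 1% keratinocyte or fibroblast RNA.

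Promoter sequence is shown for 5 of the secreted products that were higher in EBA members, to place 3 motifs known for inducible genes of myeloid cells. The bases run 5′ to 3′ from 150 to 29 bases before the RefSeq transcription start (build GRCm38.p6), with motif matches in capitals. The motifs were TGANTCA for AP-1, GGGANNTTC for NF-kB and GAGGAAGT for PU.1, searched on both strands.
Mmp13, chr9:7272364-7272485, plus strand, AP-1: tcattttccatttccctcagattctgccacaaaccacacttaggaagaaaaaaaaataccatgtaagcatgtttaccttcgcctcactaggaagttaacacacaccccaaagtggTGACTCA
Mmp12, second start, chr9:7347224-7347345, plus strand, AP-1: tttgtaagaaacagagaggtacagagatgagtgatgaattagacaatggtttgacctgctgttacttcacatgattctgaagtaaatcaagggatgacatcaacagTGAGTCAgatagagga
Mmp12, first start, chr9:7344247-7344368, plus strand, PU.1: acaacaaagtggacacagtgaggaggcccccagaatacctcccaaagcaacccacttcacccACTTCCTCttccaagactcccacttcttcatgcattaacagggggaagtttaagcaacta
Spp1, first start, chr5:104434961-104435082, plus strand, PU.1: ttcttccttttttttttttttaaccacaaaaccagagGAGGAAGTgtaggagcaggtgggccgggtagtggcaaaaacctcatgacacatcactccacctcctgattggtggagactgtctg
Cxcl2, chr5:90903749-90903870, plus strand, NF-kB: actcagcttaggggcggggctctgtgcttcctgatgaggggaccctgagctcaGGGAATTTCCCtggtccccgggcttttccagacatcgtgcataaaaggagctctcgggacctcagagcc
Cxcl3, chr5:90785951-90786072, plus strand, NF-kB: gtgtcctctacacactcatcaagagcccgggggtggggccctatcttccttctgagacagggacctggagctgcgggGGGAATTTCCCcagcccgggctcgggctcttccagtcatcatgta

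Among 32851 RefSeq promoter entries, the same window held the AP-1 letters in 3.63%, the NF-kB letters in 1.52% and the PU.1 letters in 1.25%. The AP-1 match began 35 bases before the start of Mmp13 and 44 before the second start of Mmp12. These are a collagenase and an elastase gene that both lie on chromosome 9. The Mmp13 match ends on the last base of the window, so a window ending farther from the start would miss it. The capitals of Cxcl2 and Cxcl3, both on chromosome 5, are the same run and hold 2 overlapping NF-kB matches each. The first began 97 and 73 bases before the start. The second Spp1 start and the Cd209a promoter held none of the 3 letter strings in this window. These genes and motifs were chosen with the expression values known, and no factor was measured at these sites.

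Metabolic lists were described next. Glycolysis and hypoxia genes were higher in 10 of 20 measured, lower in 1, and had a median of 0.97. Pkm, pyruvate kinase, stood at 1004 against 483 CPM (2.08-fold, 1.82 to 2.38), and Hilpda, a lipid droplet protein induced by low oxygen, at 701 against 294 CPM. Gapdh at 1537 against 854 CPM and Aldoa at 614 against 323 CPM missed the 2-fold limit. Hif1a, the oxygen-regulated transcription factor, stood at 347 against 126 CPM (2.75-fold, 2.13 to 3.60). Of 7 arginine, nitric oxide and itaconate genes other than Arg1, 4 were higher and 0 lower. They were Acod1, Arg2 (182 against 31.5 CPM, 5.77-fold (3.52 to 10.2)), Ass1 (99.6 against 21.7 CPM) and Nos2 (14.8 against 0 CPM, at least 2.51-fold higher).

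Of 8 iron and haem genes, 3 were higher, with a median of 0.53, and Fth1, the ferritin heavy chain, stood at 31421 against 13138 CPM (2.39-fold, 2.33 to 2.45). Of 13 lipid and lysosome genes, 3 were higher, with a median of 0.63. Psap at 1975 against 1084 CPM and Apoe at 1078 against 709.6 CPM were not called. Plin2, which coats lipid droplets, stood at 893 against 179 CPM (4.98-fold, 4.04 to 6.21). Of 6 NADPH oxidase genes, Ncf4 and Rac2 were higher, and Cybb, the catalytic subunit, at 368 against 239 CPM was not called.

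Interferon response genes were higher in 6 of 10 measured, with a median of 1.46. Ifitm3, an antiviral membrane protein, stood at 824 against 278 CPM (2.96-fold, 2.50 to 3.54) and Ly6e at 336 against 98.6 CPM (3.41-fold, 2.57 to 4.63). Ifitm2, at 977 against 978 CPM, was not called. Isg15 stood at 131 against 51.3 CPM, and 1 cell held 50.9% of its EBA UMIs and 1 cell 69.2% of its IgG UMIs. Of 17 NF-kB targets, 1 was higher and 0 lower, with a median of 0.15. Of 19 immediate early and heat shock genes, which respond to enzyme digestion, 0 were higher and 2 lower, with a median of -0.09. Of 11 cell cycle genes, 1 was higher, with a median of 0.09. Over all measured genes 9.73% were higher and 7.5% lower. The few calls in the NF-kB, immediate early and cell cycle lists are thus no result about those lists.

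The remaining lists were small or mixed. Of 11 mature migratory dendritic cell genes, 5 were higher and 1 lower, with a median of 0.79. Ccr7, the receptor that guides dendritic cells to lymph nodes, stood at 306 against 177 CPM, and Ccl22 at 128 against 57.2 CPM from 11 EBA and 5 IgG cells. For Ccl22, 1 cell held 64.2% of the EBA UMIs and 1 cell 65.5% of the IgG UMIs. Of 9 resident macrophage genes, 3 were higher and 1 lower. Mrc1, the mannose receptor, stood at 237 against 158 CPM and was not called, and Cd163, the haemoglobin scavenger receptor, at 14.8 against 53.2 CPM was lower (3.59-fold, 2.11 to 6.02). Of 3 type 1 dendritic cell genes, Irf8 was higher (136 against 37.5 CPM), and of 5 plasmacytoid genes, Runx2 (41.4 against 9.86 CPM).

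Members with and without Flt3 UMIs were also compared, as Flt3 marks the dendritic lineage. Among the 52 EBA and 19 IgG members with a Flt3 UMI, 326 of 6157 genes were higher (5.29%) and 230 lower (3.74%). Among the 183 and 27 without, 764 of 7725 were higher (9.89%) and 629 lower (8.14%). Of the monocyte list, 8 of 14 measured genes were higher in the former and 12 of 15 in the latter. The chemokine median was -0.15 with Flt3 and 1.64 without, and the Fc receptor median -0.21 and 1.06. Plac8 had log2 ratios of 3.12 and 7.13, Spp1 of 0.92 and 4.51, and Cd209a of -2.49 and -2.88. In members with Flt3, Il1a (-0.72), Cxcl1 (-1.06), Tnf (-1.08) and Ctsb (-0.31) had log2 ratios below 0, whereas over all members they were higher. Ccl22 was at -2.35 and Clec10a at 0.02 in members without Flt3. The difference between the 2 subsets was not tested.

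A second split used the type 2 dendritic cell panel and was chosen after these values were seen. With the panel there were 23 EBA and 24 IgG members, and without it 212 and 21. In members with the panel, 235 of 4897 genes were higher (4.8%) and 196 lower (4%). In those without it, 798 of 8004 were higher (9.97%) and 733 lower (9.16%). The MHC class II median was -0.02 with the panel and -0.72 without. Spp1 was lower in EBA members with the panel (3.47 against 192 CPM, 1 UMI in EBA) and higher in those without it (2875 against 28.9 CPM). With the panel, 39 of the 44 IgG Spp1 UMIs came from 1 cell. Without the cell of each library with most of them, Spp1 had 0 EBA and 5 IgG UMIs there, too few to be measured, so the lower value rests on that cell. Thbs1 had log2 ratios of -3.14 and 1.69, Tnf of -2.02 and 1.49, and Plac8 of 4.80 and 3.85. With the panel, Tnf rests on 9 EBA and 29 IgG UMIs. Plac8 rests there on 35 EBA UMIs and 1 IgG UMI, with a ratio interval of 4.67 to 1128, so its 2 values cannot be ranked. Mmp12, a gene of the wound macrophage list, was higher in both subsets, with log2 ratios of 1.21 and 2.74. The difference between these subsets was not tested, and the genes of the panel itself are no result here.

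**Figure D4:**
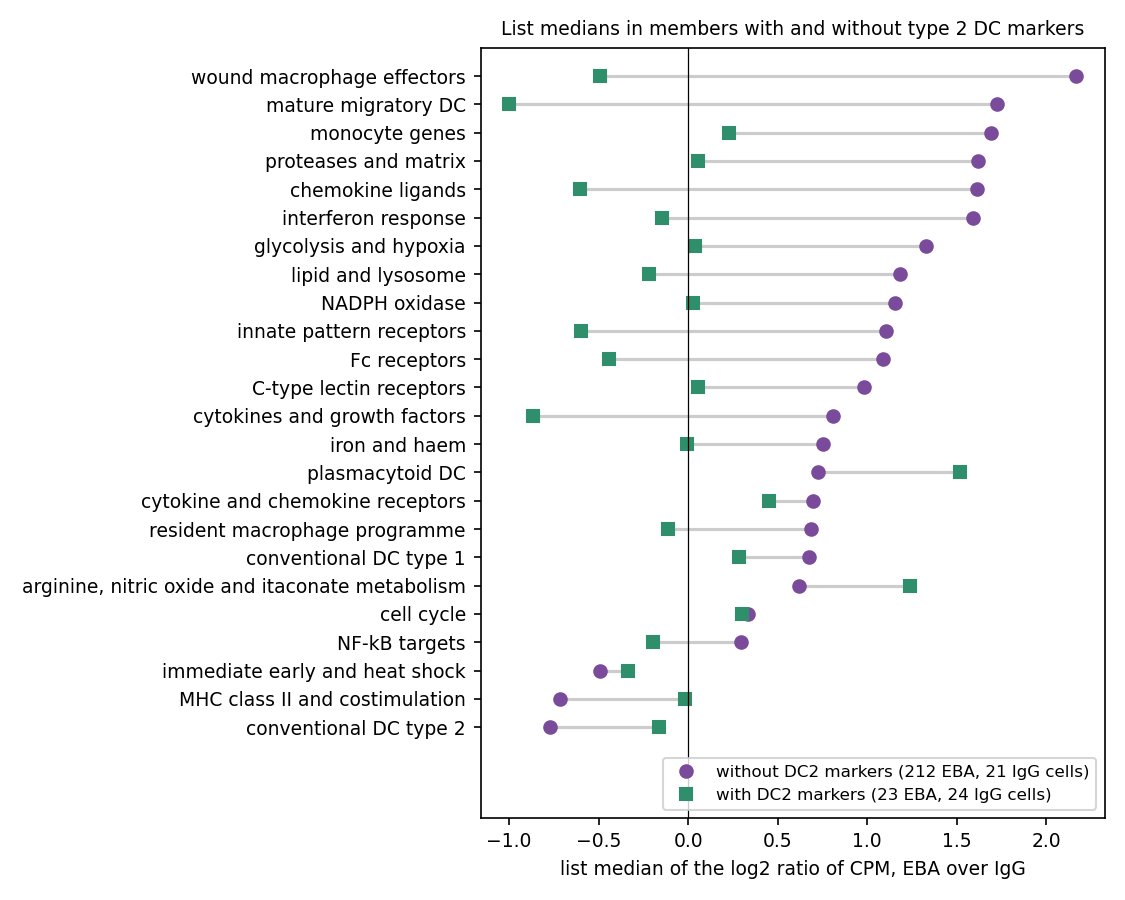
Median log2 ratio of CPM, EBA over IgG (x axis), of the measured genes of 24 lists (y axis), in members with the type 2 dendritic cell panel (green squares, 23 EBA and 24 IgG cells) and without it (purple circles, 212 and 21 cells). Grey lines join the medians of a list. The wound macrophage median is 2.17 without the panel and -0.49 with it, and the MHC class II median is -0.72 and -0.02.

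The same contrast was set beside 3 other cell groups of the series, each from its own cells. C1q-high skin cells passed the gate except for the C1q limit (249 EBA, 66 IgG). Cd207-high skin cells exceeded the Cd207 limit (36 EBA, 15 IgG), and the same gate in blood gave 119 EBA and 290 IgG cells. The gate sets no limit on B cell or NK cell genes, so the blood group is not monocytes alone. In its EBA and IgG sums Cd79a stood at 19.0 against 73.0 CPM, Ms4a1 at 5.55 against 26.4 CPM and Gzma at 1112 against 1569 CPM. The part of B cell and NK cell RNA in the blood values was not tested. The groups share no cells, but those of skin share their libraries, so no overlap was counted. In C1q-high cells 452 of 8020 genes were higher (5.64%) and 567 lower (7.07%). In Cd207-high cells 544 of 6791 were higher (8.01%) and 327 lower (4.82%), and in blood 265 of 7829 were higher (3.38%) and 867 lower (11.1%).

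Cd74 had a log2 ratio of -1.36 in the members, 0.88 in C1q-high cells, 0.13 in Cd207-high cells and -1.92 in blood. The whole MHC class II list had medians of -0.999, 0.88, 0.36 and -1.81 in that order. The C1q-high list had 5 of 11 measured genes higher and 0 lower, and the blood list 0 of 12 higher and 9 lower. Il1b had log2 ratios of -0.27, 1.46, 0.09 and -1.21. Chil3 was higher in the members (6.91), in C1q-high cells (6.62) and in blood (2.07). Gpnmb had log2 ratios of 3.45 in the members, 0.92 in C1q-high cells and -3.07 in Cd207-high cells. In C1q-high cells 10 of 13 monocyte list genes were higher and 0 lower, with a median of 1.33, beside 5.64% higher over all genes. Their wound macrophage list had 6 of 15 genes higher and 0 lower, with a median of 0.92. Spp1 stood at 1141 against 72.0 CPM and Mmp12 at 214.5 against 52.1 CPM in C1q-high EBA and IgG cells. Rises of both lists were thus not particular to the members. The interferon list had medians of 1.46 in the members, 0.25 in C1q-high cells and -1.69 in blood. None of these differences between cell groups could be tested with 1 library per group.

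**Figure D5:**
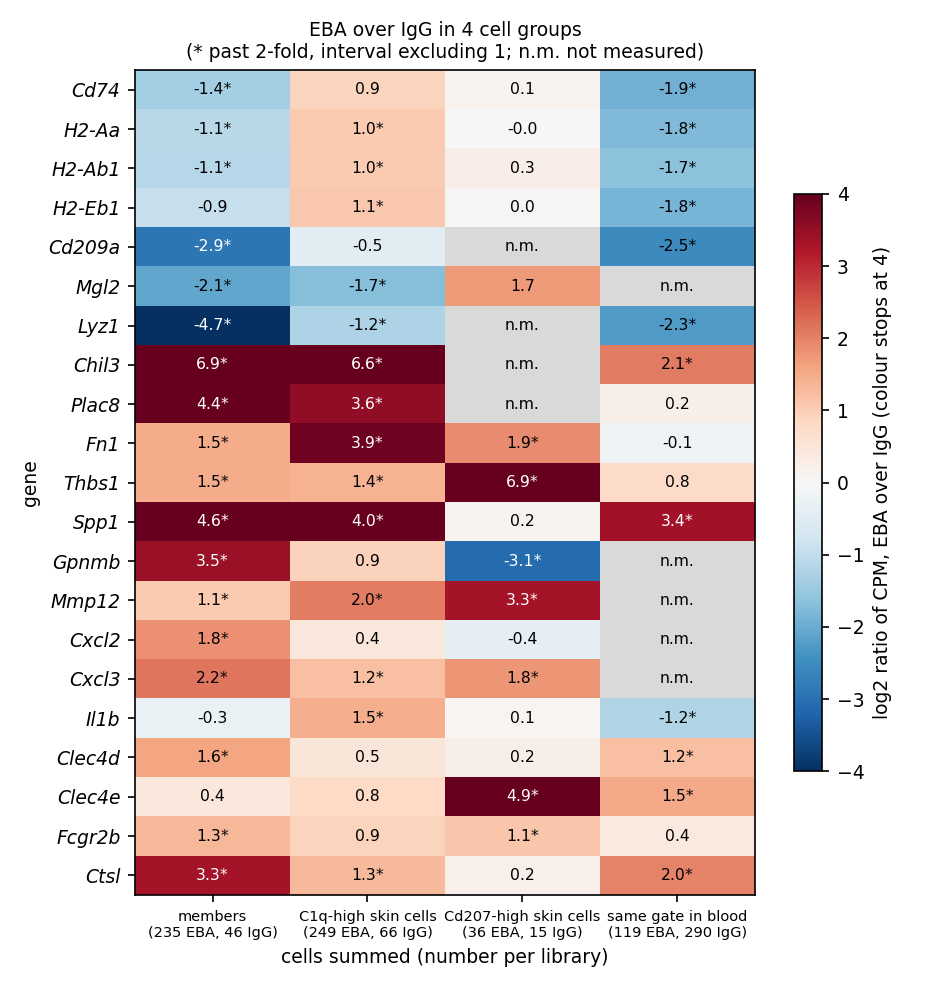
Log2 ratio of CPM, EBA over IgG (colour and printed value), for 21 genes (rows) in the members and 3 other cell groups (columns, with cells per library). Red is higher in EBA, blue is lower, stars mark ratios past 2-fold whose interval excludes 1, grey cells marked n.m. were not measured, and a gene with 0 UMIs in 1 sum is shown at its bound. Cd74 reads -1.4 in the members, 0.9 in C1q-high cells, 0.1 in Cd207-high cells and -1.9 in blood.

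Against the other kept barcodes of EBA skin, the genes with the highest fold in the members included Ccl17, Mgl2, Ms4a4c, Ccr7, Chil3, Arg1, Ccr2, Tnip3, Ccl24, Napsa and F10. Ccl17, a chemokine of dendritic cells, stood at 142 CPM in EBA members and 1.98 CPM in the other barcodes. F10, coagulation factor X, stood at 446 and 30.0 CPM. Since the rule chose the members on the same cells, this is a description.

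RNA of other cells moved with the groups, and its part in the results was not tested. The 4 haemoglobin genes summed to 3167 CPM in EBA and 57.2 CPM in IgG members, and 1 EBA cell held 60.4% of these haemoglobin UMIs. The 5 fibroblast markers summed to 2280 and 453 CPM, with 48.0% of the EBA and 88.7% of the IgG UMIs in 1 cell each. The 4 keratinocyte markers outside the rule summed to 2226 and 5464 CPM, with 54.6% and 79.4% in 1 cell each. Without the cell of each library with most of a sum, haemoglobin stood at 1262 and 38.0 CPM, fibroblast markers at 1199 and 53.1 CPM and keratinocyte markers at 1029 and 1416 CPM. S100a8, which marks neutrophils and was limited by the rule, had a UMI in 30.2% of thinned EBA members and 33.2% of EBA keratin-rich barcodes, and in 0 of 45 IgG members (up to 7.87%). Since the rule capped S100a8 plus S100a9, that comparison is a description. Chil3, Arg1, Spp1 and Plac8 had a UMI in at most 1.26% of EBA keratin-rich barcodes.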

How the data were processed

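Single-cell RNA was measured in 4 libraries, blood and ear skin of EBA and IgG mice, each from cells of 3 pooled mice. The deposited values were UMI counts per gene and cell barcode. Cell Ranger 3.0.0, Seurat 3.0.0 and 3.1.0 and build mm10 are named in the submitters' processing notes, and which step used which is not given in the sources used here. No cell annotation was used. Here, barcodes with 200 or more genes and at most 10% mitochondrial UMIs were kept, the membership rule was applied, and counts were summed per library and scaled to CPM. No sample test was possible with 1 library per group. Ratios had exact conditional intervals, shares exact Clopper-Pearson intervals, and counts of 0 a floor of 3 counts. UMIs mark molecules, but the mice behind them cannot be separated. Doublets were not removed, and an alternative left out the barcodes with the highest Scrublet scores.

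Genes were named by rule: the 12 highest and 12 lowest by the ratio bound nearest to 1, among genes of 100 CPM or more that were not below 0.5 times the level of the other barcodes, without ribosomal, mitochondrial, haemoglobin, receptor-chain, model, rule and non-myeloid marker genes. Up to 4 abundant genes per list, called Fc and C-type lectin receptors, the markers, and the 12 genes most above the other EBA barcodes were also named, except a few results that are not reported here. The members, the 24 lists and the 18 marker lists were chosen with earlier results of these data known. Of 347 list genes, 346 matched the files. Rule genes were left out of the marker panels. Promoters came from RefSeq tables (GRCm38.p6). The calling was tested on counts simulated from the summed members with counting error alone. Spread between cells or mice was no part of that simulation, so it cannot show how the calling behaves under such spread. Tools were numpy 2.4.6, scipy 1.17.1, pandas 2.3.3, scanpy 1.11.5, matplotlib 3.10.9 and edgeR 4.0.16, the last for TMM factors in an alternative.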

Additional observations from a re-analysis of the deposited data

Results flagged for a closer look

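Between skin members and the cells that passed the same gate in blood, 3 of the genes reported here were past the limit in opposite directions, with 1 library each, so the difference was not tested. Isg15, a ubiquitin-like interferon response protein, had a log2 ratio of 1.35 in skin (131 against 51.3 CPM) and -1.69 in blood (29.3 against 94.8 CPM). In skin 1 cell held 50.9% of its EBA and 1 cell 69.2% of its IgG UMIs, and without the cell of each library with most of them the ratio was 2.01 (64.5 against 16.1 CPM). In members with the type 2 dendritic cell panel Isg15 was at -3.00, from 3 EBA and 19 IgG UMIs, 18 of the latter in 1 cell. Runx2, a transcription factor, had 2.07 in skin (41.4 against 9.86 CPM) and -2.46 in blood (9.52 against 52.2 CPM). Tnf had 1.18 in skin (255 against 112 CPM) and -1.52 in blood (10.3 against 29.6 CPM).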

How the results depend on the processing

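No paired analysis was possible because each group had 1 pooled library, and for the same reason no replicate could be left out. Against 746 genes higher and 575 lower, TMM scaling gave 742 and 588, no filter 746 and 651 of 14687 tested, and a 5% mitochondrial limit 716 and 553. The higher count was 216 with cells thinned to 2000 UMIs, 326 in members with Flt3, 240 without members with 2 or more lymphoid or mast cell UMIs (83 EBA and 12 IgG members remained) and 476 without the deepest 10% of members. The lower count was 177 thinned, 230 with Flt3, 243 without lymphoid or mast cell UMIs and 299 with stricter limits. It was 304 without high Scrublet scores, 329 without the deepest 10% of members and 332 with 3 or more UMIs of the rule genes. Without the members over 1% keratinocyte or fibroblast RNA it was 356. The share of members, EBA skin, was 4.51% with 3 or more UMIs, 3.92% with stricter limits and 1.94% without lymphoid or mast cell UMIs. The share of members, IgG skin, was 0.225% under the last and 1.22% with the 5% mitochondrial limit. Thinning and smaller subsets hold fewer UMIs, and other causes were not tested.

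List medians turned below 0 for Fc receptors (-0.21), chemokine ligands (-0.15) and cytokines (-0.22) in members with Flt3. The cytokine median was -0.28 thinned and -0.11 without the members over 1% keratinocyte or fibroblast RNA. The type 1 dendritic cell median was -0.54 with 3 or more UMIs and -0.15 with no filter. Single log2 ratios turned as follows. In members without Flt3, Apod was 2.75, Ccl22 -2.35 and Clec10a 0.0200. In members with Flt3, Ctsb was -0.31, Cxcl1 -1.06, Il1a -0.72, Klf4 0.56, Lor -0.81, Ncf4 -0.49, Tnf -1.08 and Wfdc21 -0.49. Klf4 was 0.0457 and Dnajb1 0.67 with 3 or more UMIs, and Klf4 0.57, Fam213b 0.0759 and Timp3 0.91 without high Scrublet scores. Klf4 was 0.17 and Lor -0.96 without the members over 1% keratinocyte or fibroblast RNA. With stricter limits Lor was -0.93 and Timp3 1.33. Without lymphoid or mast cell UMIs Lor was -1.08, Tnf -1.34 and Trem2 -0.36. Without the deepest 10% of members Lor was -0.96. Counting depth limits genes with few IgG UMIs, since the IgG sum held 507313 UMIs. Chosen after the data were seen were leaving out the cell with most Spp1, Isg15 or other-cell marker UMIs, the keratinocyte or fibroblast limit and the lymphoid filter without Il7r, Gata3 and Rora, which left 214 EBA and 44 IgG members with 753 genes higher and 638 lower.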
